A study of Mus musculus with 13 samples.

Results

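Macrophage and leukocyte marker genes were followed in isolated mouse glomeruli during the first days of experimental membranous nephropathy (MN) induced with an antibody against THSD7A, a podocyte membrane protein. The set held 36 genes, chosen by name for the white blood cells that they mark, out of 35967 gene symbols measured. It consisted of 10 pan-leukocyte genes, 13 macrophage genes, 6 monocyte and neutrophil genes and 7 lymphoid genes. Of the 36, 26 were high enough to be tested, which meant that 4 or more of the 13 libraries reached 1 TPM (a measure of reads per transcript length, scaled to a fixed library total). The other 10 were Adgre1, Cx3cr1, Cd163 and all 7 lymphoid genes. A low flag, set where TPM was under 1 in at least 7 of the 13 libraries, fell on 15 of the 36, including 5 that were tested, namely C1qa, C1qb, C1qc, Itgam and Itgax.

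The 13 libraries came from 13 wild-type Balb/c mice with no genetic alteration, 1 library per mouse. The mice of the MN model were male per the methods. Control mice (n = 5) received rabbit control IgG, drawn from rabbits before immunisation, and MN mice received rabbit anti-THSD7A IgG and were examined on day 1 (n = 4) or day 5 (n = 4). Every mouse received 2 mg of rabbit IgG intraperitoneally, so that foreign immunoglobulin was present in the controls too. Control mice from both days formed 1 group, and the day of each control was not given in the sources used here. A time effect of the injection itself therefore cannot be told apart from the disease in either comparison with controls. Day 5 against day 1 has the same limit, since the controls cannot be assigned to a day.

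Glomeruli were caught with magnetic beads perfused through the renal artery, and RNA of the whole preparation was sequenced. Genes of glomerular cell types were abundant, with glomerular endothelial genes summing to 4639 to 5958 TPM per library and mesangial genes to 1496 to 2198 TPM. All 36 leukocyte genes together summed to 283 to 475 TPM per library, or 0.0399% of all TPM. Proximal tubule genes summed to 2243 to 8394 TPM and red cell and platelet genes to 99.6 to 482 TPM, and both are given again beside some of the results below. Control replicate 5 stood apart, with the highest proximal tubule sum and the lowest sum of mesangial genes.

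Leukocytes carry the tyrosine phosphatase CD45 (Ptprc) on their surface and share a set of cytoskeletal and signalling proteins, whereas macrophages add scavenger receptors, complement C1q, lysozyme and the growth factor receptor Csf1r. Neutrophils and inflammatory monocytes are rich in the calcium-binding alarmins S100a8 and S100a9, and T, B and NK cells are recognised by their receptor complexes. The normal glomerulus holds few resident leukocytes, and MN is known as a glomerular disease in which antibody and complement are deposited on podocytes with little infiltration by inflammatory cells. In RNA from whole glomeruli, fewer cells of a type and less RNA per cell cannot be told apart.

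The level of 1 of the most abundant members, Ly6c2, an antigen of inflammatory monocytes, is hard to separate from that of a near-identical gene. Its neighbour Ly6c1, known from endothelial cells as well as leukocytes, averaged 1143 TPM over the 13 libraries against 58.5 TPM for Ly6c2. Both genes lie on the minus strand of chromosome 15 in GRCm39, Ly6c2 at chr15:74980003-74988467 and Ly6c1 at chr15:74915847-74920686. Their coding sequences, read from GENCODE M39 transcripts, were 396 bases long with 9 differences (97.73% identity) and an identical run of 188 bases. The first 150 coding bases are shown because they hold 6 of the 9 differences, which are in capitals.
Ly6c2: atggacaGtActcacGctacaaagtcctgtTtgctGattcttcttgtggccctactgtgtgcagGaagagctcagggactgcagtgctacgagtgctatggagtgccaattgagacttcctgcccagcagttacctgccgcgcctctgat
Ly6c1: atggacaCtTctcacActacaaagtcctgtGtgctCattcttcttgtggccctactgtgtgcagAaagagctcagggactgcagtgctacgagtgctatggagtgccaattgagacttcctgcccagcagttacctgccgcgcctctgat

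Over all annotated transcripts, 37.66% of the 31-base words of Ly6c2 also occurred in Ly6c1. Reads from such stretches are divided between the genes by estimation, and the Ly6c2 level is therefore uncertain. Ly6c2 was 57.3, 63.1, 66.1, 54.3 and 54.5 TPM in control replicates 1 to 5, 50.2, 89.7, 50.6 and 44.6 TPM at day 1, and 75.7, 57.5, 49.3 and 48.2 TPM at day 5. The groups overlapped, and the highest value, in day 1 replicate 2, and the next, in day 5 replicate 1, were in the libraries in which Ly6c1 was highest too, at 1779 and 1480 TPM. Ly6c2 amounted to 4.20% to 6.20% of Ly6c1 in every library (mean 5.26% ± 0.372 in controls, SD, n = 5; 5.17% ± 0.824 at day 1, n = 4; 5.08% ± 0.511 at day 5, n = 4). The plot of Ly6c2 against Ly6c1 shows this narrow range library by library.

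**Figure D1:**
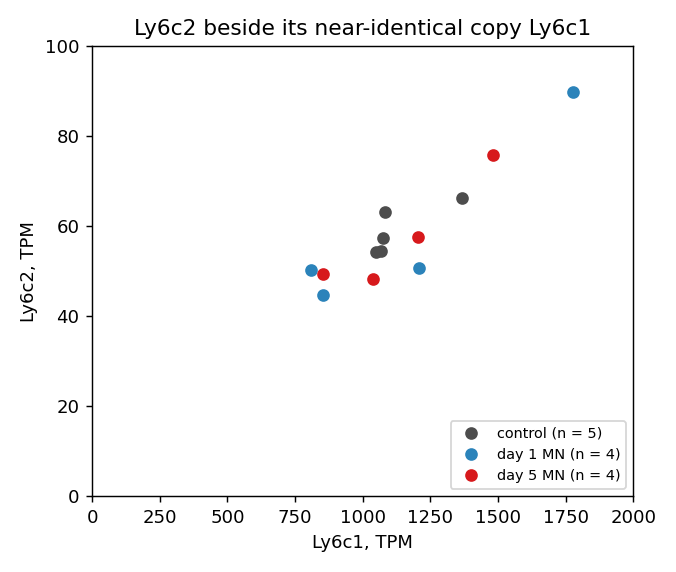
Level of Ly6c2 (vertical axis, TPM) against that of its near-identical neighbour Ly6c1 (horizontal axis, TPM), with 1 point per library coloured by group. The point at the upper right is day 1 replicate 2, with 89.7 TPM of Ly6c2 and 1779 TPM of Ly6c1, and no group stands apart from the others.

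Most leukocyte markers were scarce. Of the 36, 13 had a control mean under 1 TPM, 16 lay between 1 and 10 TPM and only 7 reached 10 TPM. These 7 (Mrc1, Ly6c2, Arhgdib, Plac8, Lyz2, Cd53 and Cd14) made up 79.4% of the summed TPM of the set. In the plot of levels by library, the rows run from Mrc1, with a control mean of 72.2 TPM, to Adgre1, with a control mean of 0.125 TPM, although both are read as macrophage genes.

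**Figure D2:**
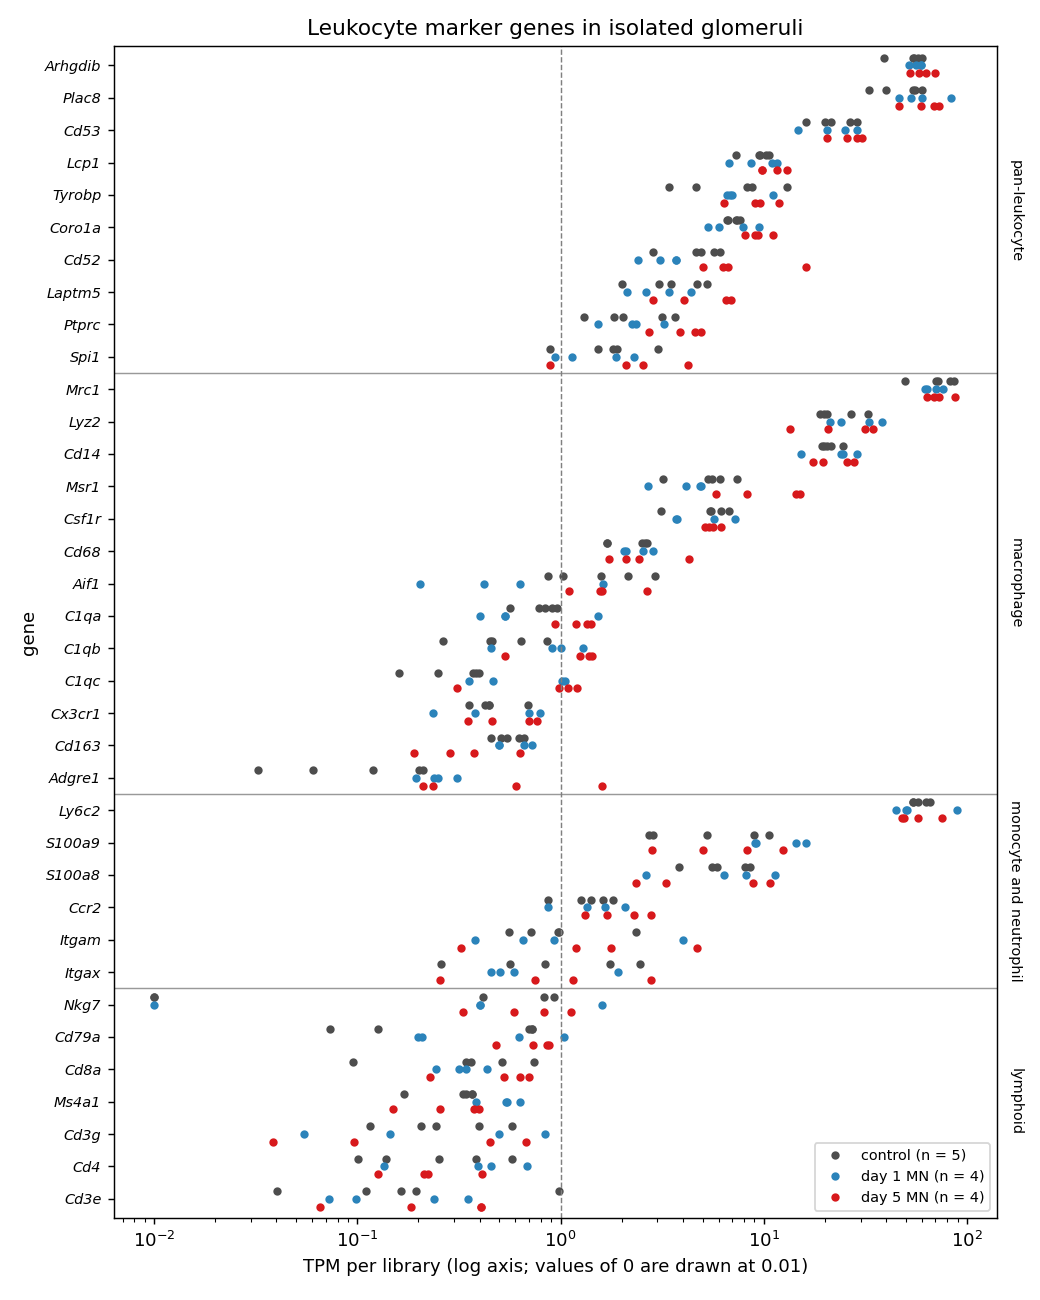
Level of each of the 36 genes in each library (horizontal log axis, TPM; values of 0 drawn at 0.01), with genes grouped by role and ordered by mean level; grey, blue and red points are control, day 1 MN and day 5 MN libraries, and the dashed line marks 1 TPM. The 7 lymphoid genes and Adgre1, Cx3cr1 and Cd163 lie mostly left of the line, and in nearly every row the 3 colours overlap.

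None of the 26 tested genes passed the test in any of the 3 comparisons. A gene was called where limma gave a Benjamini-Hochberg adjusted p under 0.05 over all 14322 tested genes together with an absolute log2 fold change above 0.5. At day 1, 0 of 26 were called against control, where 0.0908% of all tested genes were called. At day 5, 0 of 26 were called against control, where the background was 3.21%, and between day 5 and day 1 0 of 26 were called against a background of 1.81%. At background shares of this size, a count of 0 among 26 genes is near the background and is no result about the set.

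An unadjusted p under 0.05 was reached by 2 of 26 at day 1, by 6 of 26 at day 5 and by 5 of 26 between the days, where 12.6%, 20.1% and 15.5% of all tested genes reached it. The 6 at day 5 included C1qb and C1qc, which passed the filter only through MN libraries, and without the 3 C1q genes the count was 4 of 23. The lowest adjusted p among the members (limma) was 0.324 for S100a9 at day 1, 0.0818 for Msr1 at day 5 and 0.0514 for Msr1 between the days. The direction was uneven at day 5, when the log2 fold change against control was above 0 for 24 of 26 members, whereas 49.3% of all tested genes were above 0. The median over the 26 was 0.28 on the log2 scale at day 5, 0.04 at day 1 and 0.21 between the days, beside medians of -0.0032, -0.0029 and 0.0049 over all tested genes. Within groups, the median over the members varied between single libraries with an SD of 0.20, and the shift of the median was not tested.

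Some markers of other cells had the same sign at day 5. Red cell and platelet genes were above 0 for 7 of 9 tested, with a median log2 fold change of 0.35, and glomerular endothelial genes for 7 of 7, with a median of 0.19, and their part in the values of the leukocyte genes was not tested. Mesangial genes were above 0 for 5 of 6, with a median of 0.11. Proximal tubule genes were above 0 for 4 of 8, with a median of -0.02, and distal tubule genes for 3 of 6, with a median of -0.0077. Podocyte genes went mostly the other way, with 2 of 6 above 0 and a median of -0.21.

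C1qa, C1qb and C1qc passed the filter only through MN libraries, since none of the 5 controls reached 1 TPM. Without them 21 of 23 members were above 0 at day 5, with a median of 0.25. Without control replicate 5, the library with the highest tubule sum, 20 of 26 were above 0, and without day 5 replicate 2 the count was 18 of the 24 then tested. The map of differences per library shows that control replicate 5 was the lowest of the 13 libraries for 9 of the 26 genes, and that day 5 replicate 3 was the highest for 9.

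**Figure D3:**
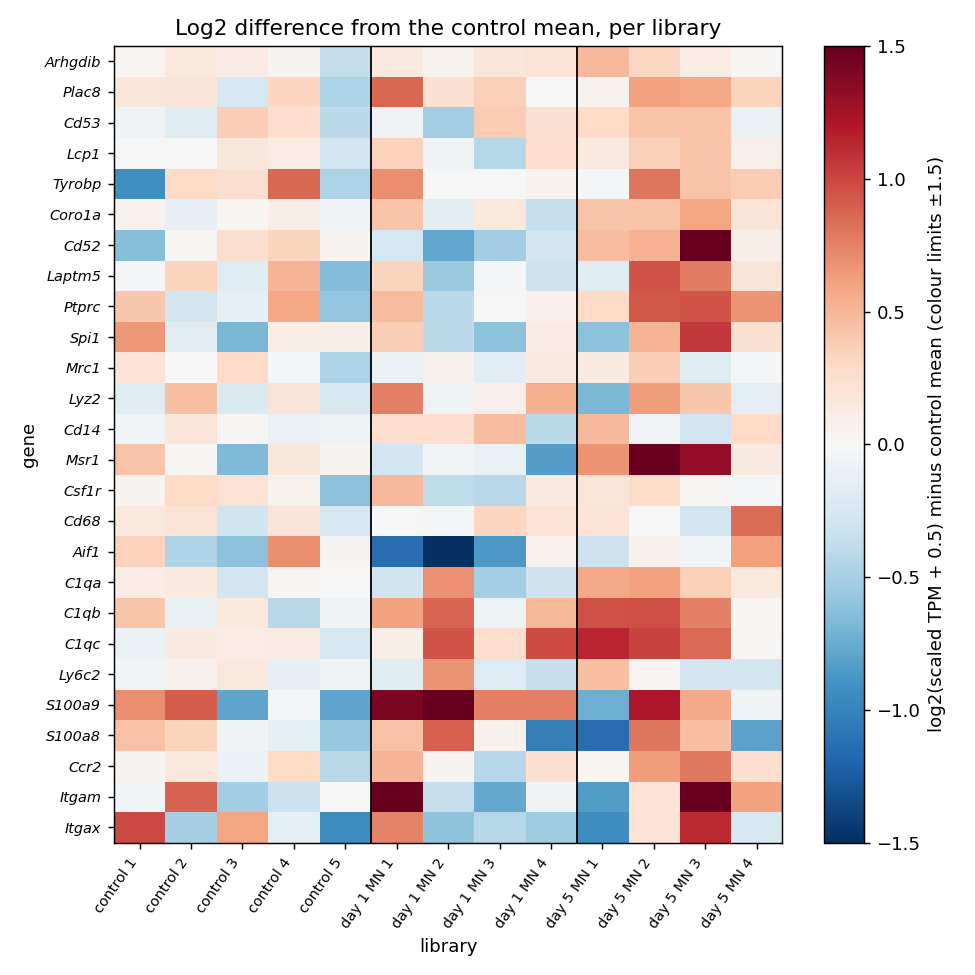
Difference of each library (columns) from the control mean for the 26 tested genes (rows), on the log2(scaled TPM + 0.5) scale, with red above and blue below the control mean and colours ending at 1.5 in either direction. Red is most frequent in day 5 replicates 2 and 3.

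The 10 pan-leukocyte genes were all tested, and all 10 had a positive log2 fold change at day 5, from 0.23 for Arhgdib to 0.71 for Ptprc, with none called. Ptprc, the CD45 gene, was 3.17, 1.83, 2.03, 3.66 and 1.30 TPM in the 5 controls. It was 3.24, 1.52, 2.26 and 2.34 TPM at day 1, and 2.73, 4.58, 4.93 and 3.87 TPM at day 5. Of the 4 day 5 values, 3 were above every control and replicate 1 lay among the controls. The log2 fold change at day 5 was 0.71 (SE 0.26, 95% confidence interval 0.16 to 1.26, limma adjusted p = 0.131), and at day 1 it was 0.04 (SE 0.26, adjusted p = 0.968).

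Coro1a, an actin regulator of leukocytes, was the only tested member whose day 5 and control values did not overlap. It was 7.42, 6.66, 7.27, 7.68 and 6.57 TPM in controls, 9.43, 6.02, 7.89 and 5.31 TPM at day 1, and 9.09, 9.34, 11.2 and 8.12 TPM at day 5. All 4 day 5 libraries exceeded the highest control, a pattern that 5.07% of all tested genes showed, while day 1 spread to both sides of the controls. At day 1, 0 of the 26 tested members lay wholly above the controls, as 0.908% of all tested genes did. The log2 fold change at day 5 was 0.41 (SE 0.14, interval 0.10 to 0.72, limma adjusted p = 0.121), which also lay under the threshold of 0.5.

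Cd52, a small glycoprotein of lymphocytes and monocytes, was 2.85, 4.91, 5.66, 6.09 and 4.65 TPM in controls, 3.69, 2.40, 3.08 and 3.69 TPM at day 1, and 6.27, 6.66, 16.1 and 5.02 TPM at day 5. Every day 5 library was above every day 1 library, a pattern shared by 6.12% of all tested genes, and day 5 replicate 3 was far above the rest. The log2 difference between day 5 and day 1 was 1.14 (SE 0.29, interval 0.51 to 1.78, limma adjusted p = 0.0638). Against control the log2 fold change was 0.68 (SE 0.28, adjusted p = 0.190) at day 5 and 0.36 (SE 0.22, adjusted p = 0.403) once day 5 replicate 3 was left out, and it was -0.46 (SE 0.28, adjusted p = 0.523) at day 1. Of the exonic bases of Cd52, 14.38% overlap exons of Crybg2 on the other strand, and whether the quantification used strand was not given in the sources used here.

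The 3 most abundant pan-leukocyte genes did not separate the groups. Their control means, 53.2 (Arhgdib), 48.6 (Plac8) and 22.6 TPM (Cd53), far exceeded those of Ptprc (2.40 TPM) and Spi1 (1.83 TPM). How much of these levels came from leukocytes was not tested. Arhgdib, a cytosolic regulatory protein of blood cells, was 54.1, 60.1, 57.7, 54.8 and 39.3 TPM in controls, 56.4, 52.1, 59.2 and 59.1 TPM at day 1, and 69.4, 62.8, 58.0 and 52.7 TPM at day 5. Plac8, a small cysteine-rich protein, was 54.3, 55.7, 39.9, 60.0 and 33.1 TPM in controls, 83.7, 53.1, 60.2 and 46.2 TPM at day 1, and 46.1, 68.9, 72.7 and 59.4 TPM at day 5. Cd53, a leukocyte tetraspanin, was 21.4, 20.0, 28.9, 26.7 and 16.2 TPM in controls, 20.6, 14.7, 28.7 and 25.3 TPM at day 1, and 25.6, 28.7, 30.5 and 20.5 TPM at day 5. In all 3 genes control replicate 5 was the lowest control. Their 95% confidence intervals at day 5 ended at log2 fold changes of 0.47, 0.80 and 0.68, so that a doubling, which is 1 on this scale, lay outside them.

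Of the other pan-leukocyte genes, Lcp1, an actin-bundling protein, Laptm5, a lysosomal membrane protein, Tyrobp, the signalling adaptor of myeloid receptors, and Spi1, the transcription factor PU.1, were 9.44 ± 1.28, 3.70 ± 1.30, 7.62 ± 3.80 and 1.83 ± 0.77 TPM in controls (SD, n = 5). At day 5 they were 11.0 ± 1.56, 5.09 ± 1.95, 9.23 ± 2.24 and 2.45 ± 1.39 TPM (SD, n = 4). Their log2 fold changes at day 5 were between 0.25 and 0.43 with adjusted p from 0.406 to 0.711 (limma), and the groups overlapped for each.

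**Figure D4:**
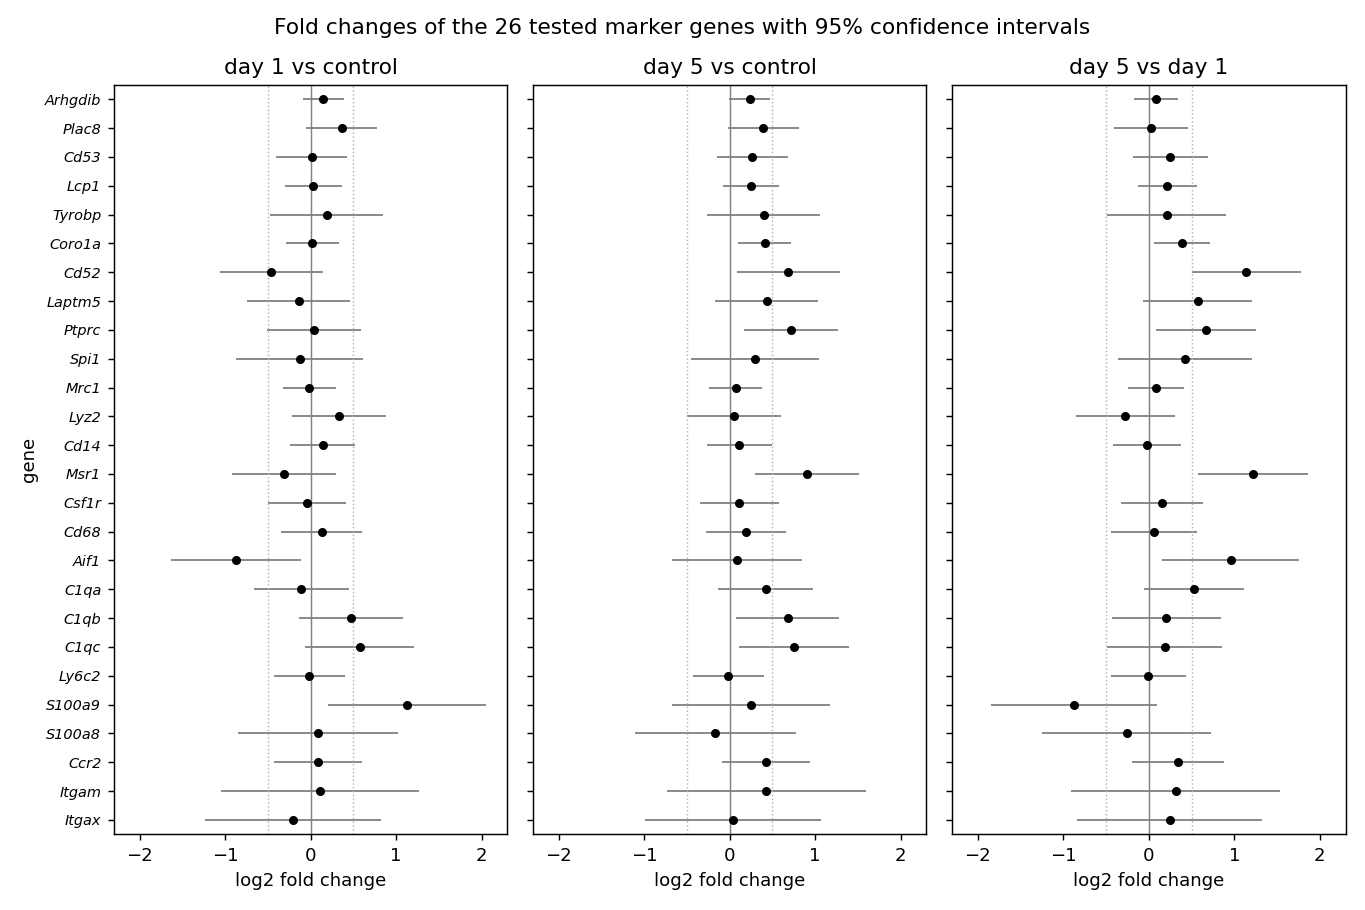
Log2 fold changes of the 26 tested genes (rows) on the log2(scaled TPM + 0.5) scale for day 1 against control, day 5 against control and day 5 against day 1; points are the limma estimates, bars their 95% confidence intervals, and dotted lines mark 0.5 in either direction. At day 5 against control 24 of the 26 points lie right of 0, and the intervals of 6 genes do not reach 0, or 4 of 23 without the 3 C1q genes.

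Among the 13 macrophage genes, the abundant ones did not separate the groups. Mrc1, the mannose receptor, was 82.1, 72.2, 86.7, 70.8 and 49.4 TPM in controls, 63.8, 70.5, 62.4 and 76.3 TPM at day 1, and 73.2, 87.6, 63.7 and 68.6 TPM at day 5. Lyz2, the myeloid lysozyme, was 20.4, 32.7, 19.9, 26.8 and 18.8 TPM in controls, 38.3, 21.3, 24.1 and 32.9 TPM at day 1, and 13.5, 34.5, 31.5 and 20.8 TPM at day 5. Cd14, the lipopolysaccharide co-receptor, was 20.6, 24.6, 21.5, 19.7 and 19.5 TPM in controls, 24.5, 23.9, 28.8 and 15.3 TPM at day 1, and 27.8, 19.5, 17.5 and 25.8 TPM at day 5. The 3 groups overlapped in each gene, and the log2 fold changes at day 5 were 0.07 (interval -0.24 to 0.38), 0.05 (interval -0.50 to 0.60) and 0.11 (interval -0.26 to 0.49). Lyz2 shares 16.06% of its exonic bases with an antisense transcript.

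Msr1, a scavenger receptor that takes up modified lipoproteins, had the lowest adjusted p of the set at day 5. It was 7.35, 5.54, 3.20, 6.10 and 5.32 TPM in controls, 4.12, 4.93, 4.88 and 2.70 TPM at day 1, and 8.27, 15.1, 14.4 and 5.85 TPM at day 5. Day 5 replicates 2 and 3 exceeded every other library, replicate 4 lay among the controls, and all 4 day 5 libraries were above all 4 day 1 libraries. This last pattern was found in 2 of the 26 tested members and in 6.12% of all tested genes, so it is near the background. The log2 fold change at day 5 was 0.90 (SE 0.28, interval 0.29 to 1.51, limma adjusted p = 0.0818), and between the days it was 1.22 (SE 0.30, interval 0.57 to 1.86, adjusted p = 0.0514). At day 1 it was -0.31 (SE 0.28, interval -0.92 to 0.30, adjusted p = 0.683).

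Whether Msr1 passed the test rested on single libraries. Without day 5 replicate 4, the log2 fold change was 1.16 at day 5 (adjusted p = 0.0244) and 1.47 between the days (adjusted p = 0.0165), both of which passed the test, and Cd52 also passed between the days, at 1.34 (adjusted p = 0.0479). Without day 5 replicate 2 the Msr1 values were 0.71 (adjusted p = 0.241) and 1.02 (adjusted p = 0.163). Leaving out control replicate 3 or control replicate 5 brought the adjusted p between the days to 0.0407 and 0.0463.

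Proximal tubule sums also differed between the days, at 3997 to 7294 TPM at day 1 and 2917 to 3543 TPM at day 5, with no overlap. With a proximal tubule score as covariate the log2 difference between the days was 1.15 for Msr1 (limma adjusted p = 0.275) and 1.35 for Cd52 (adjusted p = 0.131). Without the score the differences were 1.22 and 1.14, with lower adjusted p-values. Since the tubule sums of the days do not overlap, the score and the day are hard to separate in this fit. The rise in adjusted p is therefore not read as an effect of the tubule. Red cell and platelet genes were 99.6 to 297 TPM at day 1 and 210 to 481 TPM at day 5, against 216 to 482 TPM in controls, and their part in the result was not tested. The 6 proliferation genes (Mki67, Top2a, Cdk1, Ccnb1, Pbk and Ube2c) summed to 13.7 to 25.2 TPM in controls, 10.2 to 25.5 TPM at day 1 and 102 to 174 TPM at day 5, and all 6 were called higher at day 5. Their part in the Msr1 and Cd52 values was not tested either.

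**Figure D5:**
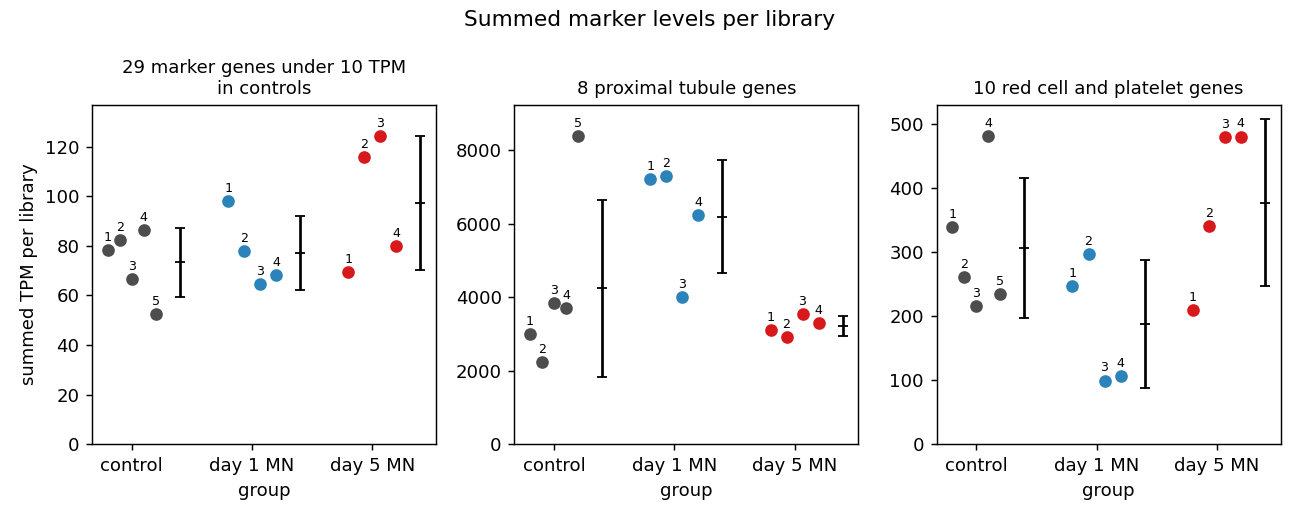
Summed TPM per library of the 29 leukocyte genes with a control mean under 10 TPM (left), of 8 proximal tubule genes (middle) and of 10 red cell and platelet genes (right) in the 3 groups; points are libraries labelled with their replicate number, and black bars show the mean ± SD. Control replicate 5 has the lowest leukocyte sum, 52.4 TPM, and the highest tubule sum, 8394 TPM, and day 5 replicates 2 and 3 have the highest leukocyte sums, 116 and 124 TPM. Day 1 replicates 1 and 2, with tubule sums of 7223 and 7294 TPM, have leukocyte sums of 97.9 and 77.9 TPM, and a relation between the sums was not tested.

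C1qa, C1qb and C1qc encode the chains of complement C1q, which starts the classical pathway, and sit side by side on chromosome 4. C1qa was 0.909, 0.958, 0.563, 0.838 and 0.781 TPM in controls, 0.534, 1.53, 0.403 and 0.534 TPM at day 1, and 1.35, 1.42, 1.19 and 0.940 TPM at day 5. C1qb was 0.855, 0.451, 0.636, 0.263 and 0.46 TPM in controls, 1.01, 1.30, 0.455 and 0.905 TPM at day 1, and 1.38, 1.43, 1.25 and 0.531 TPM at day 5. C1qc was 0.250, 0.395, 0.372, 0.384 and 0.161 TPM in controls, 0.353, 1.01, 0.466 and 1.06 TPM at day 1, and 1.21, 1.09, 0.983 and 0.310 TPM at day 5. Day 5 replicates 1, 2 and 3 were above every control for each chain, replicate 4 was not, and day 1 replicate 2 was above every control for all 3. The log2 fold changes at day 5 were 0.42, 0.68 and 0.76 (limma adjusted p = 0.406, 0.195 and 0.172), and since only MN libraries carried these genes past the filter, their counts are not read as a direction.

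Adgre1, the gene of the macrophage marker F4/80, was too low to be tested. It was 0.120, 0.032, 0.061, 0.202 and 0.210 TPM in controls, 0.195, 0.239, 0.250 and 0.309 TPM at day 1, and 0.236, 0.604, 0.211 and 1.60 TPM at day 5. All day 5 values were above all controls, a pattern that 1.81% of the 1989 genes too low for the test but above 0 in every library showed, with 0.210 TPM as the highest control and 0.211 TPM as the lowest day 5 value, and 1 library alone, day 5 replicate 4, exceeded 1 TPM. Cx3cr1, the fractalkine receptor, and Cd163, the haemoglobin scavenger receptor, stayed between 0.190 and 0.792 TPM in every library. With Adgre1, Cx3cr1 and Cd163 near 0 and Mrc1 at 49.4 to 87.6 TPM, the macrophage label is not borne by its defining genes at equal levels, and Mrc1 is known from some endothelial cells as well as from macrophages.

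Of the remaining macrophage genes, Csf1r, the receptor for colony-stimulating factor, was 5.38 ± 1.37 TPM in controls and 5.57 ± 0.43 TPM at day 5, and Cd68, a lysosomal membrane protein, was 2.23 ± 0.50 and 2.65 ± 1.14 TPM (SD, n = 5 and 4). Aif1, the cytoskeletal protein Iba1, was 2.16, 1.03, 0.865, 2.91 and 1.58 TPM in controls, 0.421, 0.204, 0.631 and 1.61 TPM at day 1, and 1.11, 1.61, 1.56 and 2.68 TPM at day 5. Day 1 was low in 3 of 4 libraries and the groups overlapped, with a log2 fold change of -0.87 (SE 0.35, interval -1.63 to -0.11, limma adjusted p = 0.347). Exons of Csf1r overlap the antisense gene Hmgxb3 over 19.85% of their length, and those of Aif1 overlap an antisense transcript over 16.6%.

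The fold changes of the 6 monocyte and neutrophil genes against control had a median SE of 0.43 on the log2 scale. It was 0.22 for pan-leukocyte and 0.26 for macrophage genes. Within the 6, Ly6c2 (SE 0.19) and Ccr2 (SE 0.24) were well below 0.43. With 1 library per mouse, variation between mice and imprecise measurement cannot be told apart in the SE. S100a9 was 8.94, 10.7, 2.86, 5.27 and 2.73 TPM in controls, 14.4, 16.2, 9.21 and 9.03 TPM at day 1, and 2.81, 12.4, 8.31 and 5.05 TPM at day 5. S100a8, its partner in calprotectin, was 8.57, 8.10, 5.92, 5.56 and 3.83 TPM in controls, 8.21, 11.4, 6.37 and 2.65 TPM at day 1, and 2.35, 10.7, 8.82 and 3.30 TPM at day 5. For S100a9 the 4 day 1 libraries lay above 4 of the 5 controls, while for S100a8 all groups overlapped widely. The log2 fold change at day 1 was 1.13 for S100a9 (SE 0.43, interval 0.21 to 2.05, limma adjusted p = 0.324) and 0.09 for S100a8 (SE 0.44, interval -0.85 to 1.03, adjusted p = 0.961).

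Itgam and Itgax, the alpha chains of the CD11b and CD11c integrins, are neighbours on chromosome 7. Itgam was 0.978, 2.35, 0.556, 0.718 and 0.975 TPM in controls, 4.03, 0.657, 0.380 and 0.932 TPM at day 1, and 0.324, 1.19, 4.71 and 1.78 TPM at day 5. Itgax was 2.47, 0.561, 1.75, 0.838 and 0.258 TPM in controls, 1.92, 0.453, 0.589 and 0.501 TPM at day 1, and 0.255, 1.16, 2.77 and 0.749 TPM at day 5. Day 1 replicate 1 and day 5 replicate 3 were the highest of their groups for both genes, and the 3 groups overlapped. The 95% confidence intervals of their log2 fold changes at day 5, -0.73 to 1.59 and -0.99 to 1.07, left a doubling within reach. Itgam shares 67.41% of its exonic bases with the gene model Gm49368 on the same strand, which averaged 0.169 TPM, so that its level too depends on how reads were divided.

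Ccr2, the receptor that draws monocytes out of the blood, was 1.42, 1.62, 1.26, 1.81 and 0.865 TPM in controls, 2.08, 1.35, 0.868 and 1.65 TPM at day 1, and 1.32, 2.29, 2.79 and 1.70 TPM at day 5. The groups overlapped, and the log2 fold change at day 5 was 0.43 (SE 0.24, interval -0.09 to 0.94, limma adjusted p = 0.350). For Ly6c2 the log2 fold change was -0.02 at day 5 (SE 0.19, interval -0.44 to 0.40), with the uncertainty over Ly6c1 described above. Of 16 further genes used to mark neutrophils, 5 were high enough to be tested: Cxcr4 averaged 21.2 TPM, Hdc 12.9 TPM, Ltf 7.42 TPM, Il1b 3.47 TPM and Csf3r 1.31 TPM over the 13 libraries, several of which other cells make too. The other 11 averaged under 1 TPM, and the neutrophil surface gene Ly6g averaged 0.0301 TPM.

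The 7 lymphoid genes were at the floor of the measurement, and none was tested. Summed over the 7, they came to 1.30 to 4.34 TPM in controls, 1.45 to 3.90 TPM at day 1 and 2.05 to 3.78 TPM at day 5, which overlapped throughout. Cd79a, part of the B cell receptor, was 0.721, 0.699, 0.073, 0.726 and 0.127 TPM in controls, 1.04, 0.199, 0.209 and 0.624 TPM at day 1, and 0.880, 0.481, 0.859 and 0.732 TPM at day 5. Cd8a, the co-receptor of cytotoxic T cells, was 0.344, 0.361, 0.514, 0.744 and 0.0951 TPM in controls, 0.244, 0.344, 0.433 and 0.317 TPM at day 1, and 0.228, 0.634, 0.529 and 0.704 TPM at day 5. Neither gene separated the groups.

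Nkg7, a granule protein of NK and cytotoxic T cells, was listed at 0 in control replicates 2 and 5 and in day 1 replicate 3, and reached 1.61 TPM in day 1 replicate 2 and 1.12 TPM in day 5 replicate 2. Ms4a1, the gene of the B cell antigen CD20, was 0.170, 0.367, 0.330, 0.368 and 0.345 TPM in controls, 0.630, 0.538, 0.384 and 0.546 TPM at day 1, and 0.255, 0.398, 0.150 and 0.374 TPM at day 5. All 4 day 1 values exceeded all controls, a pattern that 0.855% of the 1989 genes too low for the test but above 0 in every library showed, at levels under 1 TPM where the depth behind a value is unknown. Cd3e, Cd3g and Cd4, T cell receptor and co-receptor genes, stayed between 0.0385 and 0.986 TPM in every library.

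Further leukocyte genes that were no members were examined in the same fit. Of 40 other macrophage and myeloid genes, 28 were tested, and 0 were called at day 1, when 0.0908% of all tested genes were called. At day 5, 2 were called higher and 0 lower, when 2.42% of all tested genes were called higher. An unadjusted p under 0.05 at day 5 was reached by 10 of the 28, where 20.1% of all tested genes reached it. Among the 10 was Clec7a, which passed the filter only through MN libraries, since none of the 5 controls reached 1 TPM. Lgals3, the lectin galectin-3, which epithelial and other kidney cells make too, was 3.76 to 9.55 TPM in controls, 6.50 to 11.4 TPM at day 1 and 12.5 to 32.4 TPM at day 5, above every control (log2 fold change 1.56, SE 0.31, limma adjusted p = 0.0091). Ctss, the lysosomal protease cathepsin S, was 3.67 to 5.36 TPM in controls and 5.53 to 8.46 TPM at day 5 (log2 fold change 0.71, SE 0.18, adjusted p = 0.0293). The median log2 fold change at day 5 was 0.29 for the 28 and 0.28 for the 26 members. Both medians include genes that passed the filter only through MN libraries, Clec7a among the 28 and C1qa, C1qb and C1qc among the 26. Without C1qa, C1qb and C1qc the median of the members was 0.25 (23 genes), and the 2 lists are not read as bearing each other out.

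None of the tested genes in the other leukocyte lists was called at either day, which covered 5 of 16 neutrophil genes, 7 of 25 lymphoid genes and 4 of 13 dendritic and mast cell genes. Among 26 genes for leukocyte attractants, growth factors and adhesion molecules, 12 were tested and none was called in any comparison. Over all tested genes, 0.0908% were called at day 1, 3.21% at day 5 and 1.81% between the days. Counts of 0 in lists this short are near those shares and are no result about the lists. Csf1 and Il34, the ligands of Csf1r, averaged 142 and 68.9 TPM over the 13 libraries, and Cx3cl1, the ligand of Cx3cr1, averaged 75.0 TPM, far above their receptors. Il6 and Ccl12 were listed at 0 in all 13 libraries.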

How the data were processed

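RNA was measured in glomeruli of 13 mice, with 1 library per mouse. The authors extracted RNA with a column kit, sequenced paired-end libraries, and processed reads with FastQC 0.11.9, Trimmomatic 0.39 and kallisto 0.46.2 against GRCm39, and the deposited values are TPM per gene symbol. TPM keeps no read number, so the depth is unknown and no counting interval is given. A rise in abundant transcripts lowers the TPM of all others. The study itself tested counts, and here, where only TPM were used, each library was divided by its median-of-ratios factor (0.955 to 1.04, from 15772 genes above 0 in every library), a pseudocount of 0.5 was added and log2 taken, so that fold changes of low genes are understated.

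The 14322 genes that reached 1 TPM in 4 or more libraries entered limma (version 3.58.1, R 4.3.3; eBayes with trend, all 3 groups in 1 fit, 10 residual degrees of freedom), and p-values had Benjamini-Hochberg adjustment within each comparison. The script was tested on simulated data. Intervals are 95% limma intervals. The members and the lists were chosen with earlier results of these data known. Values are given for every member that was called, whose groups did not overlap or that was among the 3 most abundant of its role, and for others chosen after their values were seen. Of the other lists, called genes are named. Overlaps and shared sequence came from GENCODE M39 and BLAST+ 2.17.0. Replicate numbers did not pair the mice. Alternatives were another pseudocount, scaling, filter, variance model and set of groups, a tubule covariate, a replicate block and leaving out each library.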

Additional observations from a re-analysis of the deposited data

Results flagged for a closer look

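Single libraries stood far from the rest of their group, by the gap to the nearest value divided by the range of the group (Dixon's ratio), in 8 of the 78 combinations of 26 tested genes and 3 groups, 7 of them high and 1 low. Chance gives such a gap in about 1 of 20 groups, or 5%, where values are normally distributed and the groups independent. The TPM were not log-transformed here and the genes shared the same libraries, so 8 of 78 is not read as an excess.

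In day 1 replicate 1, Tyrobp was 11.1 TPM (others 6.60 to 6.97), Itgam was 4.03 TPM (others 0.380 to 0.932) and Itgax was 1.92 TPM (others 0.453 to 0.589). In day 1 replicate 2, Ly6c2 was 89.7 TPM (others 44.6 to 50.6) and C1qa was 1.53 TPM (others 0.403 to 0.534). In day 5 replicate 3, Cd52 was 16.1 TPM (others 5.02 to 6.66). Among controls, Itgam was 2.35 TPM in replicate 2 (others 0.556 to 0.978), and Arhgdib was 39.3 TPM in replicate 5 (others 54.1 to 60.1), the only low value.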

How the results depend on the processing

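No member was called at day 1 under any alternative. Between day 5 and day 1, 1 member (Msr1) was called with a pseudocount of 1 and with TPM as deposited, and 2 (Msr1 and Cd52) with quantile normalization. Leaving out each library gave 0 to 0, 0 to 1 and 0 to 2 members called at day 1, at day 5 and between the days, and medians of -0.04 to 0.09, 0.22 to 0.38 and 0.11 to 0.32. Over all genes it gave 3 (without day 1 replicate 1) to 218 (without control replicate 5), 326 to 474, and 150 (without day 5 replicate 2) to 437 calls (without control replicate 5). At day 1, 13 genes were called, beside 6 with no filter, 7 without the variance trend, 2 with only 2 groups in the fit and 0 with the tubule covariate. Between the days 259 were called, beside 153 with TPM of at least 1 in every library, 423 with 2 groups and 162 with the covariate. The causes were not tested. Same-numbered mice did not deviate together (12 pairs, r from -0.056 to 0.091, and 2 of 13 libraries were most like one of their own number). A replicate block gave 149 calls over all genes at day 1 and no member called. Alternatives for single genes covered only the tested members that were among the 3 most abundant of their role or whose groups did not overlap. Of these 828 values, 62 changed sign, all with a main log2 size of at most 0.26. The other tested members, Ptprc and Itgam among them, were not covered. Unknown depth and few mice limit the low genes.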
